A study of Morchella importuna with 4 samples.

Results

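Of 11599 genes measured in the morel Morchella importuna, 112 had no functional annotation and passed a set minimum level in the outer, hyphal area of the plate. They were at least 5 times lower in the sclerotial centre. Members were chosen by a rule with an annotation part and an expression part. In the annotation part, the deposited description had to read "hypothetical protein" or "expressed protein", and the best protein database match had to be absent or itself uninformative (hypothetical, predicted, unnamed or uncharacterized). In the expression part, the mean over the 2 hyphal libraries had to be at least 20 FPKM (mapped fragments scaled to the length of the gene and to the size of the library) and at least 5 times the mean of the 2 sclerotial libraries plus 0.1 FPKM. Since the area means chose the members, the differences between areas given for them are a description and were not tested.

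The study compared 2 areas of the same plates at the sclerotial initiation stage, when the first small sclerotia form. A strain held in the CGMCC culture collection was grown on potato dextrose agar in the dark at 20 °C for 4 days. The sclerotial area (SII) was the disc within 2 cm of the centre, where cells were swollen, and the hyphal area (SIO) was the rest of the plate. Each sample mixed mycelium from 2 plates, and each area gave 2 libraries, made with a kit that does not mark strand. No treatment or mutation was used. The areas differ in position on the plate and in the age of the mycelium as well as in cell form, and these cannot be told apart. The study calls the replicates biological, but neither it nor the labels tell whether the pools came from separately started cultures, so spread between libraries may be in part technical.

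A sclerotium is a dense, hardened body of fungal cells that stores nutrients and survives adverse conditions, and in cultivated morels it precedes fruiting. The outermost edge of a growing colony is the youngest mycelium, where tips extend into fresh medium, secrete enzymes and take up nutrients. The hyphal area here was all of the plate outside the central disc, so it need not be that edge alone. Genes described as hypothetical or expressed proteins are predicted by gene-finding programs, with transcript reads as further evidence in the case of the latter term. Their proteins may still be conserved in other fungi, where nobody has assigned a function either. Small secreted proteins, lineage-specific proteins and fast-evolving proteins are common among unannotated genes of fungi. No role is known here for any member, so members are described by level, length, closest match and behaviour across libraries.

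Depth was 24841181 and 23108142 reads in SII replicates 1 and 2 and 27993281 and 27579812 in SIO replicates 1 and 2. Over the 8906 genes tested, those that reached 1 FPKM in 2 or more libraries, the SD of the log2 difference between replicates was 0.68 in SII and 0.23 in SIO. Over these genes as a whole the SII libraries were thus the less alike, although some members differed more between the SIO libraries. With 2 libraries against 2, the smallest two-sided p that an exact permutation test can give is 0.333.

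The annotation part of the rule fixes the label of the group, so the counts here only describe it. Of the 112 members, 58 were described as expressed protein and 54 as hypothetical protein. A database match was listed for 88, and for 24 none was listed. No match name held any of a short list of functional words, such as kinase or transporter, but the rule had already kept uninformative names only. Of the 88 match names, 6 named the match only as similar to some other protein without a function. All 112 members were detected in all 4 libraries, so no fold below is against a level of 0. In 7 members, an SII library held under 20 reads, and there counting error is large.

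Unannotated genes did not stand out for reaching these thresholds. Of the 1801 unannotated genes with an SIO mean of at least 20 FPKM, 112 (6.22%) also met the ratio, against 291 of 3001 (9.70%) of all other genes. Among those with no match at all, the count was 24 of 338 (7.10%). With the thresholds mirrored, 181 unannotated genes were high in the sclerotial area.

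**Figure D1:**
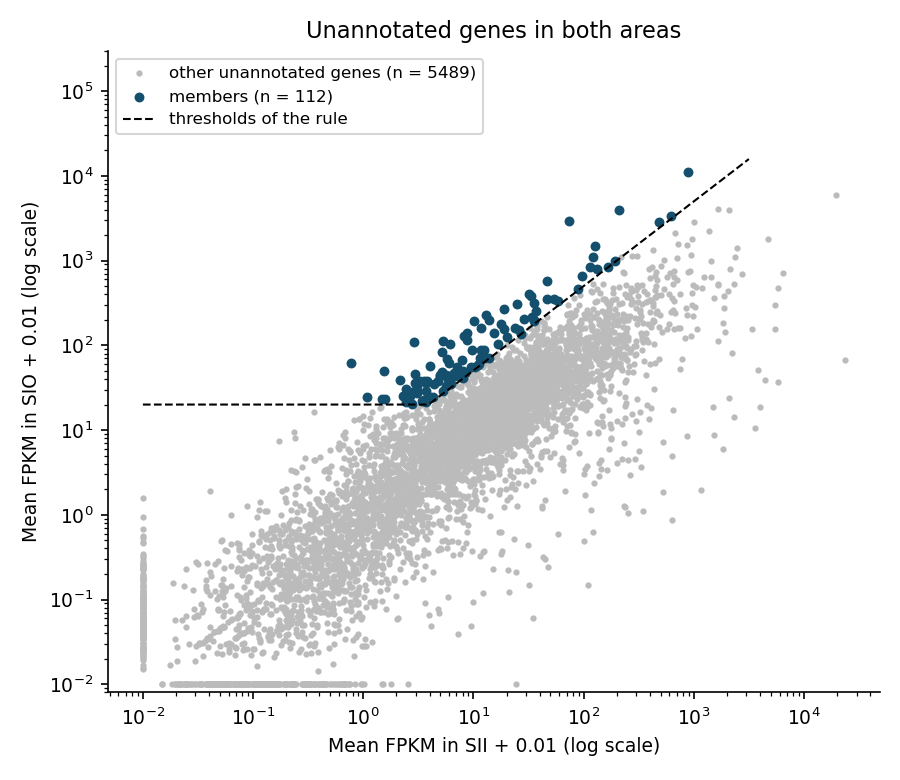
Mean FPKM in SII (x axis) against mean FPKM in SIO (y axis), each plus 0.01 and on a log scale, for the 5489 other unannotated genes with reads (grey) and the 112 members (blue). The dashed line is the rule, flat at 20 FPKM and then rising at 5 times the SII mean, and the members lie above it by construction, with 75 of them at ratios from 5 to 10.

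As a group the members took a small share of the transcripts in SII and a larger one in SIO. Their summed FPKM was 0.350% and 0.620% of the total in SII replicates 1 and 2 and 5.29% and 5.05% in SIO replicates 1 and 2. The areas did not overlap, with means of 0.485% ± 0.191 in SII and 5.17% ± 0.170 in SIO (n = 2 libraries each, SD). Since the rule chose each member on these same libraries, a large gap between the area means is built in. The 291 other genes that met the same thresholds, called described genes here, took 0.870% and 1.90% in SII and 12.2% and 12.6% in SIO. Of these, 31 are described only as hypothetical or expressed protein but have an informative database match. In bulk tissue, fewer cells that express a gene and less RNA of it per cell cannot be told apart.

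A few members carried most of this abundance. The 7 members with an SIO mean of at least 1000 FPKM held 64.7% of the members' summed FPKM in SIO. A further 38 members lay from 100 to 1000 FPKM, 20 from 50 to 100 and 47 from 20 to 50. The median SIO mean was 65.0 FPKM, against 98.5 for the described genes at the same thresholds. Across the 112 members, which share the same libraries, Spearman's rho between SIO level and ratio was 0.02.

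JGI 484831 alone held 26.6% of the members' FPKM in SIO and ranked 2 of all genes in both SIO libraries. It measured 667 and 1107 FPKM in SII replicates 1 and 2 and 11374 and 10578 FPKM in SIO replicates 1 and 2. The lowest SIO library lay far above the highest SII library. Its gene model is only 246 bases long, and its closest match is a hypothetical protein of Neonectria ditissima, a canker fungus of trees. Its mean in SIO was 12.4 times the SII mean plus 0.1 (log2 SII minus SIO -3.67, standard error 0.31, limma on log2(FPKM + 1)).

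JGI 540684 followed, with 157 and 266 FPKM in SII and 3991 and 3867 FPKM in SIO. It is a long gene model of 2980 bases with a match in Fusarium oxysporum, and its ratio of 18.6 was among the 10 largest. Its SIO libraries were closely alike, while the SII libraries differed by 1.69 times. The gene with the next number in the annotation, JGI 580283, was also a member, at 121 and 131 FPKM in SII and 1607 and 1403 FPKM in SIO. Both of its areas were tight, and its match is in the split-gill mushroom Schizophyllum commune, a basidiomycete.

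JGI 536683 was the most abundant member with no database match. It reached 586 and 657 FPKM in SII and 3424 and 3348 FPKM in SIO, from a model of 326 bases. Its ratio was near the lower limit of the rule, at 5.45, so that it stayed abundant in the sclerotial area too.

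JGI 604125 had the largest fall of any member on the log2(FPKM + 1) scale, while JGI 532204 fell more with a pseudocount of 0.1 (log2 differences of -5.88 and -6.41). It was at 19.1 and 127 FPKM in SII and at 3004 and 2836 FPKM in SIO (ratio 39.8, log2 SII minus SIO -5.85, standard error 0.91). In SII, replicate 2 held 6.69 times the level of replicate 1, while the SIO libraries were nearly equal. Its match is a hypothetical protein of Aspergillus parasiticus.

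JGI 532316 and JGI 554001 also exceeded 1000 FPKM in SIO. JGI 532316, with a match in the yeast-like fungus Aureobasidium pullulans, had 213 and 750.5 FPKM in SII and 2578 and 3096 FPKM in SIO. JGI 554001, with a match in Pseudogymnoascus verrucosus, had 41.8 and 203 FPKM in SII and 1148 and 1041 FPKM in SIO. In both genes all SIO values exceeded all SII values, but SII replicate 2 was several times higher than replicate 1, and neither passed the threshold of the test over all genes.

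The next 8 members by level lay between 389 and 1132 FPKM in single SIO libraries. JGI 540841 (match in Fusarium avenaceum) had 210.5 and 173 FPKM in SII and 1132 and 838.5 FPKM in SIO. JGI 569812 (match in Pyronema omphalodes, a cup fungus of the same order as morels) had 65.4 and 162 FPKM in SII and 798 and 896 FPKM in SIO. JGI 573520 (match in the nematode-trapping Dactylellina haptotyla) had 144 and 191 FPKM in SII and 833 and 842 FPKM in SIO. These genes were abundant in the centre as well, with ratios from 5.003 to 7.46. JGI 471265 (match in Baudoinia panamericana) had 59.8 and 132 FPKM in SII and 639 and 674 FPKM in SIO. JGI 537049 (match in the barley pathogen Pyrenophora teres) had 23.2 and 70.5 FPKM in SII and 604 and 547 FPKM in SIO. The latter had the larger ratio, 12.3 against 6.82.

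**Figure D2:**
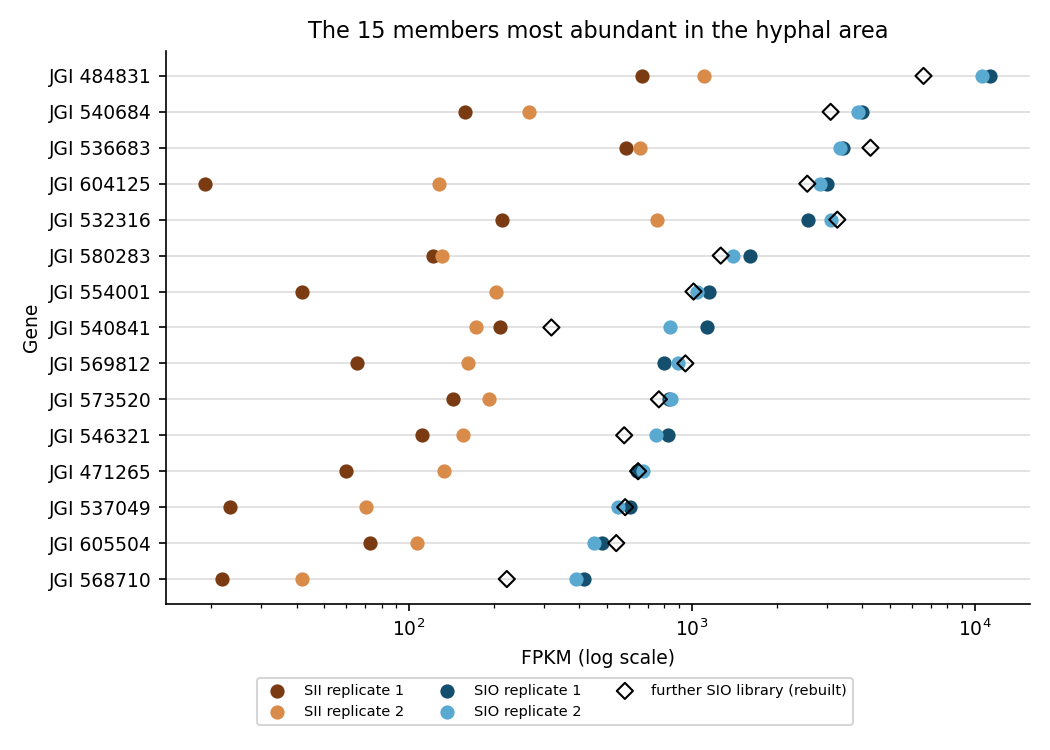
FPKM on a log scale (x axis) of the 15 members with the highest SIO mean (y axis), a filled point per library and an open diamond for the further SIO library rebuilt from the authors' mean. All filled SIO points lie above all filled SII points in each gene, and the diamond of JGI 540841, at 319 FPKM, lies well below its SIO points of 1132 and 838.5 FPKM.

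Members differed widely in ratio, from 5.003 to 71.2 with a median of 7.99. Only 6 had a ratio of at least 20, 31 lay from 10 to 20 and 75 from 5 to 10. The largest belonged to JGI 532204, which has no database match. It was at 0.297 and 1.23 FPKM in SII and at 60.0 and 63.1 FPKM in SIO. Its SII replicate 1 rested on 7 reads (exact Poisson 95% interval 2.81 to 14.4 reads, counting error only), so the ratio is poorly bounded. Each SIO value lay far above each SII value, but the gene was picked for its large ratio in these same libraries.

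JGI 576520 and JGI 565804 had large ratios with tight SII replicates. JGI 576520, with a match in the skin fungus Microsporum gypseum, had 2.68 and 3.01 FPKM in SII and 102 and 116 FPKM in SIO, a ratio of 37.0. JGI 565804, with a match in Cladophialophora bantiana, had 1.37 and 1.68 FPKM in SII and 55.6 and 44.2 FPKM in SIO, a ratio of 30.7. In these genes replicate spread was small beside the difference between areas, although the size of that difference is what they were picked for. JGI 606114, with a match in Stachybotrys chartarum, had 4.50 and 5.99 FPKM in SII and 97.0 and 129 FPKM in SIO, a ratio of 21.2.

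JGI 572524 had a ratio of 21.0, but its levels were low and uneven. It measured 0.296 and 1.83 FPKM in SII and 32.7 and 16.1 FPKM in SIO. The first value came from 4 reads (exact Poisson 95% interval 1.09 to 10.2). It was also the only member whose closest match lay outside the fungi, in the water mould Aphanomyces invadans.

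JGI 534980, JGI 539895 and JGI 149989 complete the 10 largest ratios. JGI 534980 (match in Capronia semiimmersa) had 3.44 and 16.8 FPKM in SII and 197 and 192 FPKM in SIO. JGI 539895 (match in the rice pathogen Bipolaris oryzae) had 4.63 and 21.2 FPKM in SII and 234 and 222 FPKM in SIO. JGI 149989 (match in Aureobasidium namibiae) had 1.14 and 3.13 FPKM in SII and 41.5 and 35.8 FPKM in SIO. In all 3 the SII libraries differed by several times, and the SIO libraries by little.

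Over all genes, limma called 1084 of 8906 tested genes lower in SII and 914 higher, with a difference of at least 1 on the log2 scale and an adjusted p (Benjamini-Hochberg) below 0.01. The lower calls are 12.2% of the genes tested, and under median-ratio scaling they were 743 against 981 higher. All 112 members were tested, and 91 were called lower in SII. Because the rule used this same contrast, that count says nothing further about the members. It was 112 with either SII library left out, dropped to 1 when SIO replicate 1 was left out and to 0 when SIO replicate 2 was. In each of these fits the remaining library of that area is assumed to vary as the other area does, so the spread comes from the closely alike SIO libraries in the former fits and from SII in the latter, and 112 is no sign of stability. The log2 differences of the members ran from -5.85 to -2.27 with a median of -2.90, against a median of -0.11 over all genes tested. In all 112, both SIO libraries lay above both SII libraries, which the rule favours, as it used the same libraries. The same held for all 291 described genes at the same thresholds and for 43.9% of the genes tested. Among the members, the smallest gap was in JGI 583431, where the lowest SIO value was 3.12 times the highest SII value.

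The rule sets a minimum difference for every member, and the values that follow only describe the spread between replicates. What decided which members were called was not tested. The SII replicates of the 21 members not called differed by 2.39 to 12.7 times with a median of 4.10, against a median of 1.63 and a highest value of 6.69 for the 91 called. The standard errors of those not called ran from 0.39 to 1.14 on the log2 scale. For the 91 called they ran from 0.14 to 0.91, so the ranges overlapped. The members not called included abundant genes such as JGI 532316 and JGI 554001. JGI 559434, with a match in the ergot fungus Claviceps purpurea, was another, at 5.09 and 44.7 FPKM in SII and 340.1 and 278 FPKM in SIO.

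The difference between the SII replicates, which the rule did not use, went one way in most members. SII replicate 2 was above replicate 1 in 101 of 112 members, as against 48% of the genes tested. The median difference was 0.75 on the log2(FPKM + 1) scale (range -0.41 to 3.19), against -0.03 over all genes tested. Members thus stood nearer to their hyphal level in SII replicate 2. This was not particular to unannotated genes, as 273 of the 291 described genes at the same thresholds also had the higher value in replicate 2, with a median of 1.06. The unannotated genes high in the sclerotial area went the other way, with a median of -0.34.

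The replicate gap was 2 times or more in 49 members and 5 times or more in 6. The largest was in JGI 583431, which has a match in Bipolaris sorokiniana, at 2.27 and 28.7 FPKM in SII. Its SIO libraries also differed, at 190.2 and 89.8 FPKM. JGI 571539, a member with no match, had 0.728 and 5.14 FPKM in SII and 41.3 and 29.9 FPKM in SIO, the first from 7 reads. At the other end, some members hardly differed between the SII libraries. JGI 569418 (no match) had 8.39 and 8.38 FPKM in SII and 50.7 and 43.9 FPKM in SIO. JGI 547358 (match in Pyronema omphalodes) had 11.4 and 11.3 FPKM in SII and 71.0 and 71.5 FPKM in SIO. JGI 544126 (match in Exophiala aquamarina) had 17.1 and 16.4 FPKM in SII and 101 and 108 FPKM in SIO. For these 3 genes both areas were tight, and the levels differed by 5.57 to 6.22 times.

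In 11 members SII replicate 2 was at or below replicate 1. Among them were the abundant JGI 540841 and the unmatched JGI 37448, which had 60.2 and 57.1 FPKM in SII and 342 and 334 FPKM in SIO. Between the SIO libraries, replicate 2 was the higher in 38 of 112 members (40.3% of the genes tested), with a median difference of -0.08 on the log2 scale. Only 2 members differed by 2 times or more between the SIO libraries, JGI 583431 and JGI 572524.

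**Figure D3:**
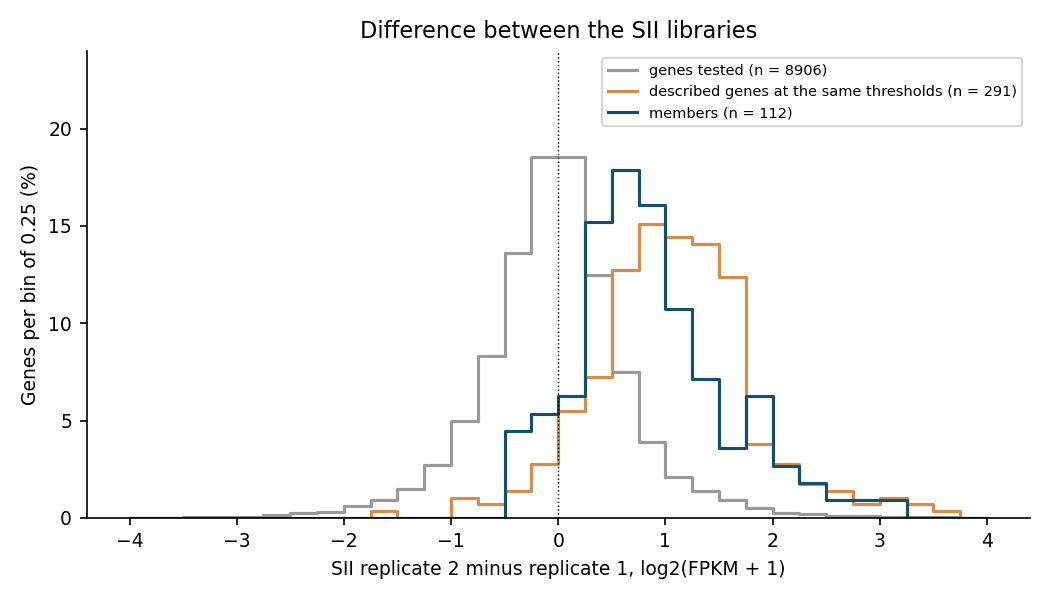
Difference between the SII libraries, replicate 2 minus replicate 1 on the log2(FPKM + 1) scale (x axis), as the percentage of genes per bin of 0.25 (y axis) for the 112 members, the 291 described genes at the same thresholds and all 8906 genes tested. The median of the members lies to the right of 0, at 0.75, and that of the described genes at 1.06, while the genes tested are centred near 0.

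The authors' mean scaled read count of the hyphal area could be matched to whole reads only with a further SIO library beside the 2 that the labels give. Its reads, 21730888 in all, were recovered gene by gene, and an FPKM was rebuilt from them. Its provenance is not described, so it served only to show the members in a measurement that the rule had not used on the hyphal side. In it, all 112 members lay above both SII libraries, which the rule had already used to pick genes low there. The same held for 290 of the 291 described genes at the same thresholds and for 41.9% of the genes tested. Of the members, 84 were at least 5 times the SII mean plus 0.1 (5.4% of the genes tested), a measure in which the SII side is the one the rule used. The full rule with this library in place of the SIO mean was met by 78 members, and the other 34 missed it, 14 of them at an FPKM under 20.

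The members' levels in the further library were mostly lower than in the other SIO libraries. It lay below both SIO libraries in 87 members, between them in 11 and above both in 14, and 57.1% of the genes tested lay below both. The median difference from the SIO mean was -0.32 on the log2 scale, against -0.12 over the genes tested. The members were picked for high values in the other SIO libraries, a choice that by itself favours lower values here, and its part in the shift was not tested. The described genes at the same thresholds had a median difference of -0.17, and 190 of 291 lay below both.

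Single members differed much more from their SIO mean. JGI 574165, a member of 297 bases with no match, had 124 and 86.3 FPKM in SIO replicates 1 and 2 but 14.6 FPKM in the further library, near its 9.96 FPKM in SII replicate 2. JGI 540841 had 319 FPKM in the further library and JGI 484831 had 6593 FPKM. Both were below the other SIO libraries by a wide margin. JGI 551998, with a match in Pseudogymnoascus, went up instead, with 126 FPKM beside 65.8 and 76.6 FPKM in SIO replicates 1 and 2. The abundant unmatched JGI 536683 was also higher there, at 4280.3 FPKM. For these genes the range over all 3 SIO libraries was wider than that of the 2 labelled ones.

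**Figure D4:**
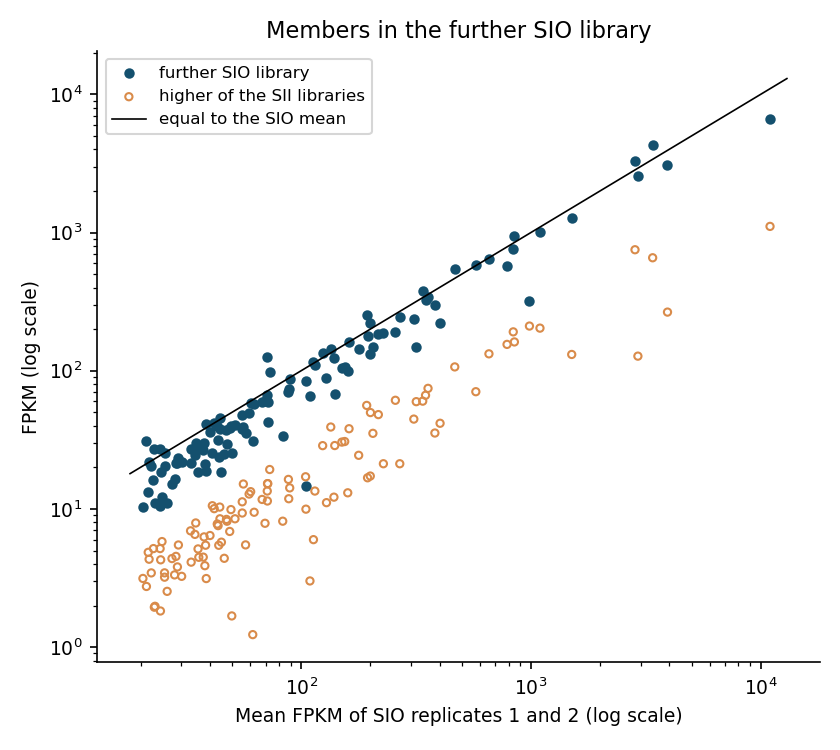
FPKM in the further SIO library (filled) and in the higher of the SII libraries (open) on the y axis against the mean of SIO replicates 1 and 2 on the x axis, both on log scales, for the 112 members. Most filled points lie on or below the line of equality, with a median of -0.32 on the log2 scale, and in every member the filled point is above the open one.

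Members with no match were shorter than those with one. Lengths were recovered from the ratio of reads to FPKM and are those of the gene models used for counting. The median model was 1301 bases over the members (quartiles 824.5 and 2276.25), 1598 over the 88 matched and 772 over the 24 unmatched. The median was 1548 for the described genes at the same thresholds, 999 for all unannotated genes with reads and 915 for the unannotated genes high in the sclerotial area. Of the 10 members under 500 bases, 6 had no match, and of the 14 over 3000 bases, none lacked one.

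The extremes of length were of unlike abundance. The shortest member, JGI 492682 with 153 bases, had 41.0 and 66.4 FPKM in SII and 353 and 342 FPKM in SIO. The next, JGI 475296 with 201 bases, had 5.56 and 15.1 FPKM in SII and 60.3 and 51.7 FPKM in SIO. The longest, JGI 415314 with 8198 bases and a match in Trichoderma virens, had 2.96 and 4.47 FPKM in SII and 38.1 and 33.6 FPKM in SIO. Over the 112 members, length had little relation to SIO level (Spearman rho -0.14) or to the log2 difference (rho 0.00). FPKM divides by model length, so for very short models such as JGI 484831 and JGI 492682 a small error in length changes the level much, in both areas alike.

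**Figure D5:**
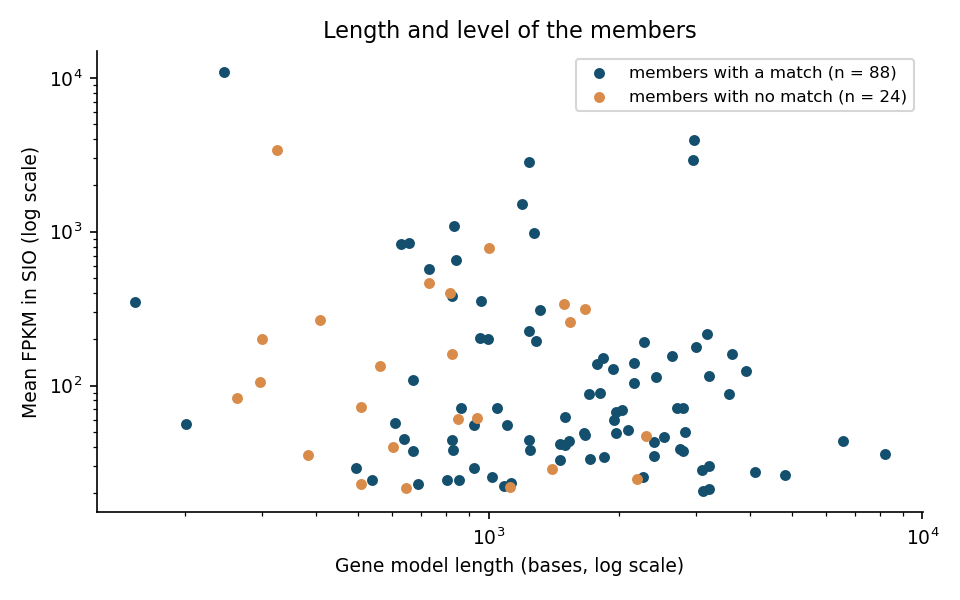
Gene model length in bases (x axis) against mean FPKM in SIO (y axis), both on log scales, for the 88 members with a database match and the 24 without. The unmatched members lie to the left, with a median of 772 bases against 1598, and the most abundant gene is among the shortest, at 246 bases.

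The 8 most abundant unmatched members spanned a wide range of levels. After JGI 536683 came JGI 546321, at 111 and 155 FPKM in SII and 825 and 749 FPKM in SIO. JGI 605504 had 72.6 and 107 FPKM in SII and 479.8 and 452 FPKM in SIO. JGI 568710 had 21.7 and 41.7 FPKM in SII and 416 and 389 FPKM in SIO. Their areas did not overlap, and the last of them fell the most, with a ratio of 12.7. JGI 564357 had 11.7 and 59.7 FPKM in SII and 353 and 281 FPKM in SIO. JGI 411242 had 12.9 and 61.1 FPKM in SII and 279 and 235 FPKM in SIO. JGI 357156 had 16.5 and 21.2 FPKM in SII and 257 and 279.9 FPKM in SIO. The last was tight in both areas, while in JGI 564357 and JGI 411242 the SII libraries differed about as much as the areas' nearest values did.

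The 88 matches were spread over 47 genera. The class Eurotiomycetes, which holds Aspergillus and Penicillium, gave 22, Dothideomycetes 16, Sordariomycetes 16 and Leotiomycetes 12. Pezizomycetes, the class of morels and truffles, gave 9, of which 3 were in the truffle genus Tuber and 6 in the cup fungus Pyronema. Basidiomycota gave 7, the nematode-trapping class Orbiliomycetes 4, and the yeasts of Saccharomycotina and the water moulds 1 each. The counts by class were not set against all genes. The share in Tuber and Pyronema was 10.2% of the matched members and 5.05% of all 8351 matched genes. It was 8.80% of the matched unannotated genes that reached 20 FPKM in SIO but not the ratio. Among the described genes at the same thresholds it was 3.09%. The 2 genera differed: Tuber was 3.41% of the matched members and 5.24% of those genes below the ratio, and Pyronema 6.82% and 3.56%. Of genera outside this class, Fusarium was 7.95% of the matched members and 3.16% of all matched genes, and Pseudogymnoascus 7.95% and 9.91%. These shares may depend on which species were in the database and how they were annotated, which was not tested.

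The Pezizomycetes matches varied in level by over an order of magnitude. After JGI 569812, the next was JGI 504882, with a match in Tuber melanosporum, at 5.35 and 12.2 FPKM in SII and 132 and 146 FPKM in SIO. The lowest was JGI 514129, with a match in Pyronema omphalodes, at 0.954 and 1.97 FPKM in SII and 24.2 and 22.1 FPKM in SIO. The ratios of JGI 504882 and JGI 514129, 15.7 and 14.8, were in the upper part of the members' range. Those of the other Pezizomycetes matches ran from 5.53 to 10.5.

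In 2 cases another gene had the same database match as a member. JGI 491404 (65.4 and 49.2 FPKM in SIO) shared its match with JGI 528861, which fell just short of the SIO minimum. JGI 528861 had 2.31 and 3.93 FPKM in SII and 18.9 and 18.7 FPKM in SIO, so in both genes each SII value lay below each SIO value. JGI 495646 shared its match with JGI 546647, which was higher in both areas, at 38.8 and 54.5 FPKM in SII and 118 and 119 FPKM in SIO. The sequences of these genes were not compared, and how reads that map to more than 1 gene were counted is not given in the sources used here.

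Some members had gene numbers next to those of other genes that were high in the hyphal area. The numbers run from 1 to 14213. How they map to position is not stated, but the log2 differences of genes with consecutive numbers were weakly correlated (r = 0.20 over 6130 pairs of genes, which are not independent), against r = 0.00 at a step of 50. Of the 112 members, 19 had a neighbour by number that met the expression thresholds, annotated or not. The share over the genes tested was 6.01%, and over the described genes at the same thresholds it was 47 of 291. With libraries that do not mark strand, reads of neighbouring models that overlap cannot be told apart.

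Only 2 pairs of members had consecutive numbers. JGI 540684 and JGI 580283 are numbers 13738 and 13739, with the levels given above. JGI 114446 and JGI 505329 are numbers 5461 and 5462. JGI 114446 had 19.9 and 48.1 FPKM in SII and 220.4 and 213 FPKM in SIO, and JGI 505329 had 2.65 and 3.88 FPKM in SII and 42.6 and 33.6 FPKM in SIO. Number 5463, JGI 486386, is described as a carrier of the major facilitator superfamily with a match to a carboxylic acid transporter, and it had 9.84 and 13.9 FPKM in SII and 111 and 113 FPKM in SIO. All 3 genes of this run were lower in SII in every library.

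JGI 479492 and JGI 515330, numbers 451 and 453, lie by number on either side of a described gene. JGI 479492 had 5.48 and 5.02 FPKM in SII and 28.9 and 29.6 FPKM in SIO, and JGI 515330 had 3.18 and 6.27 FPKM in SII and 38.0 and 37.6 FPKM in SIO. The gene numbered between them, JGI 479546, is described as similar to NADPH-cytochrome P450 reductase, the enzyme that passes electrons to cytochromes P450. Its match is a putative bifunctional protein of P450 and reductase. JGI 479546 had 9.35 and 22.6 FPKM in SII and 140.1 and 127 FPKM in SIO, above both members.

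Several described neighbours by number were themselves abundant, where beside means only the next gene number. Beside JGI 604125 lies JGI 572426, of the NAD-dependent epimerase and dehydratase family, at 142 and 409 FPKM in SII and 2419.9 and 2420.2 FPKM in SIO. Beside the unmatched JGI 357156 lies JGI 494195, a subtilisin-like serine protease, at 26.9 and 45.1 FPKM in SII and 1774 and 1574 FPKM in SIO. Beside the unmatched JGI 335603 lies JGI 555234, a hexokinase, the enzyme that phosphorylates glucose on entry into glycolysis, at 55.0 and 146 FPKM in SII and 799.8 and 790.1 FPKM in SIO. In all 3 neighbours both SIO libraries lay above both SII libraries, as their choice by these thresholds favours. JGI 532204, the member with the largest ratio, has a gamma-glutamyltranspeptidase beside it, JGI 602390, which takes part in glutathione turnover. It had 4.12 and 8.15 FPKM in SII and 53.6 and 46.7 FPKM in SIO, a ratio of 8.04 against 71.2 for the member.

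The thresholds of the rule cut through a continuous range. Just inside the SIO minimum were JGI 515079, JGI 607727 and JGI 578467, with SIO means of 20.5, 21.2 and 21.6 FPKM. Just outside were JGI 551400, JGI 531212 and JGI 528861, with 19.7, 19.4 and 18.8 FPKM. No gap in level separates the groups there. At the ratio, JGI 573520, JGI 335603 and JGI 579157 were just inside with 5.003, 5.005 and 5.085. JGI 575612, JGI 568281 and JGI 136295 were just outside with 4.96, 4.95 and 4.94. The last of these had 139 and 302 FPKM in SII and 904 and 1275 FPKM in SIO, so that a gene more abundant than most members was left out by a small margin.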

How the data were processed

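Paired-end RNA sequencing was done in 2 SII and 2 SIO libraries. The authors removed low-quality reads, mapped clean reads to the M. importuna genome with TopHat2 2.1.0 (per the processing notes) and deposited FPKM per library for 11599 genes. The counting program and the FPKM program are not given in the sources used here. The authors also deposited a signal column per area, a mean of scaled read counts, and their own fold changes and p-values, which were not used. Replicates are numbered by the column names, which do not tie a column to a library label with certainty.

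Whole reads, with a tolerance of 0.01 read, and whole-base gene model lengths were recovered from the FPKM and the mean scaled counts. The SIO mean could be met only with 3 libraries. The rebuilt FPKM of the further library runs 1.01 times the deposited scale (median). Genes that reached 1 FPKM in 2 or more of the 4 libraries were fitted on log2(FPKM + 1), which understates changes of low genes, by limma 3.58.1 in R 4.3.3 with area as the only term and a mean-variance trend. Calls needed a difference of at least 1 on the log2 scale, in either direction, and an adjusted p (Benjamini-Hochberg) below 0.01. The recovery and the fit were tested on simulated data. Tables were made with numpy 2.4.6, scipy 1.17.1 and pandas 2.3.3, and plots with matplotlib 3.10.9. Intervals on reads cover counting error only.

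The members and lists were chosen with earlier results of these data known. Members named are the 15 highest in SIO, the 10 largest ratios, those whose numbers are next to or 2 from another member's, the 8 highest with no match, the 5 largest and 3 smallest SII replicate ratios, and the 3 on either side of each threshold. Others (JGI 574165, 551998, 492682, 475296, 415314, 504882, 514129, 491404, 495646) and the neighbours and genes with a shared match were chosen after their values were seen. Genera were assigned to classes from general taxonomic knowledge. Promoters and proteins of these gene models were not analysed here. Alternatives were another pseudocount, other filters and scalings, a replicate block, no trend, limma-voom on recovered reads, a looser adjusted p, other limits of the rule and leaving out each library.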

Additional observations from a re-analysis of the deposited data

How the results depend on the processing

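The limits of the rule set the number of members. It was 112 as reported, 166 at a ratio of at least 4 and 145 at an SIO minimum of 10 FPKM, but 56 at a ratio of at least 8, 65 at a minimum of 50 FPKM, 70 when every library had to meet the rule and 24 with no database match. It ranged from 89 to 175 when a library was left out, the highest without SII replicate 2, where 111 of the 112 were among the 175. Without a filter, limma called 0 members and 0 genes in all (0 lower and 0 higher in SII), with 5305 genes at an unadjusted p under 0.05, and limma-voom on recovered reads called 92 members and 1981 genes. The cause of the fall without a filter was not tested. At an adjusted p under 0.05 the calls over all genes were 3262 (1876 lower and 1386 higher). Leaving out a library gave 0 to 112 members called and 79 to 3911 genes called, of which 2 to 2133 were lower and 76 to 1778 higher, with the low ends without an SIO library. The other alternatives kept these counts within 1.5 times of those reported, and quantile normalization gave 872 lower and 966 higher. With a replicate block 108 members and 1950 genes were called. Deviations of libraries with the same number had a correlation of 0.20 over the 8906 genes, but only 2 pairs exist and the labels do not say that a number marks a shared plate or day. The median replicate difference over members was 0.86 in SII under median-ratio scaling and 0.93 with a pseudocount of 0.1, and 0.00 and -0.08 in SIO. Of 504 log2 differences recomputed for the 42 named members, 0 changed sign, which the ratio of the rule favours. By more than the replicate spread, 36 moved. These were 12 with a pseudocount of 0.1, 12 with limma-voom, 7 with quantile normalization and 5 with median-ratio scaling. Another filter, a replicate block or no trend cannot change a log2 difference. Leaving out a library cannot move it past that spread, so these settings say nothing about stability. Members with under 20 reads in an SII library are limited by counting error.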
